A study of Rattus norvegicus with 12 samples.

Results

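The genes described here encode the integrin subunits and the laminin chains of the rat. They were chosen by symbol, as every row of the deposited table whose gene name is Itga or Itgb with a number or one of the letters v, l, m, x, d and e, or Lama, Lamb or Lamc with a number. The rule found 38 of the 30562 rows, holding 37 gene symbols, because Itgae stands on 2 rows. All 38 passed the filter on low counts, which kept 15712 genes for testing. For the description they were parted into 9 rows of leukocyte integrins, 18 matrix-binding integrins and 11 laminin chains.

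RNA was sequenced from 12 rat sciatic nerve stumps in 4 groups of 3. Control stumps are named only as controls. The CC4:2 and CC4:4 groups had truncated cone conduits of different gradient, and VP4:2 stands for a 4:2 conduit loaded with verteporfin, a compound used to block the binding of the coactivator YAP to TEAD transcription factors. Per the series' design text, the conduits were studied for pain relief and the loaded group for the part of YAP in it. The labels give no strain, age, time after surgery or drug dose, and say neither what the controls received nor if each of a group's 3 stumps came from its own animal. The p-values therefore measure only how far these samples varied, which may be technical variation.

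Integrins are cell-surface receptors made of 1 alpha and 1 beta subunit. Those with the beta2 or beta7 subunit, and alpha4, are carried mainly by leukocytes, where they bind counter-receptors on other cells and opsonized particles and let the cells leave the blood. The others bind matrix proteins such as laminins, collagens and fibronectin. Laminins are trimers of an alpha, a beta and a gamma chain and form the polymer of the basement membrane. In nerve, each Schwann cell and axon unit lies in a basement membrane of this kind, Schwann cells hold it through alpha6 and alpha7 integrins and dystroglycan, and loss of the laminin alpha2 chain or of the integrin beta1 subunit from Schwann cells disturbs radial sorting and myelination. The perineurium, the cell sheath around each fascicle, has basement membranes too.

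Totals were 13763106 to 18632301 counts per sample. Replicates 1 and 2 of every group were read on a NovaSeq X Plus (8 samples) and replicate 3 on a DNBSEQ-T7 (4 samples). Schwann cell and myelin markers, which check the labelled tissue, were present in every sample, but at very different levels. The summed level of 7 Schwann cell markers was 56.9 to 522 CPM (counts relative to library size) in Control, 235 to 373 in CC4:4, 1149 to 2702 in CC4:2 and 1061 to 1577 in VP4:2. Control replicate 1 stood apart from the other Control samples on the second principal component (84.9 against -34.1 and -55.9, a component with 11.6% of the variance). It also had the lowest Schwann cell sum of all 12 samples (56.9 CPM) and the lowest myelin sum (473 CPM against 2783 and 4676 in the other Control samples). Calls that changed without it are given with the counts of each comparison or beside the gene.

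In CC4:2 stumps, every leukocyte integrin row was lower than in Control, and 9 of the 18 matrix-binding integrins and 10 of the 11 laminin chains were higher. Over all genes tested, 23.2% were called lower and 20.3% higher. The count of matrix-binding integrins moved with single Control libraries. It was 5 without Control replicate 2 or Control replicate 3 and 11 without Control replicate 1, and 5 with NovaSeq samples only or with only the 6 samples compared. The laminin count was 9 with any 1 of the 6 libraries left out, and the leukocyte count 7 to 9. Calls over all genes in this comparison moved too, at 5244 to 7233 with 1 library left out, beside 6835 with all samples. In CC4:4 stumps no member was called against Control, where 0% of all genes were called. In VP4:2 stumps, Itgb2, Itgam and Itgax stood far above their level in CC4:2 and at or above that of Control, while Itga6, Itga7, Itgb4 and 9 of the 11 laminin chains lay on average between CC4:2 and Control. A gene is called at an adjusted p under 0.05 from the quasi-likelihood test of edgeR with Benjamini-Hochberg adjustment over all 15712 genes, and fold changes are log2 fold changes from that fit with a standard error (SE). Levels are TMM-scaled CPM, which are not scaled by gene length and so are not compared between genes.

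Against Control, CC4:2 had 19 members called higher and 10 called lower, where 43.5% of all genes tested were called (20.3% higher and 23.2% lower). The median log2 fold change was -1.76 over the 9 leukocyte rows, 0.60 over the 18 matrix-binding integrins and 1.53 over the 11 laminin chains, beside -0.05 over all genes tested. Against CC4:4, CC4:2 had 14 members higher and 9 lower, where 39.2% of all genes were called (18.5% higher and 20.7% lower). In that comparison 8 leukocyte rows and the matrix-binding Itga8 were lower, and 6 matrix-binding integrins and 8 laminin chains were higher. Both comparisons use the same CC4:2 samples, so they are not independent of each other.

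CC4:4 against Control gave 0 members called by edgeR, as it gave 0 calls (0%) over all genes tested. At an unadjusted p under 0.05 there were 5 members, 1 leukocyte row, 1 matrix-binding integrin and 3 laminin chains, where 5.28% of all genes passed that line. DESeq2 and limma-voom also called 0 members. Without Control replicate 1, Itga1 was called higher (log2 fold change 0.94, adjusted p = 0.0435, against 0.66 and 0.929 with all samples) and Lama1 lower (-2.0, adjusted p = 0.0399, against -1.49 and 0.932).

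VP4:2 against CC4:2 had 6 members called higher (5 leukocyte integrins and Itga8) and 2 lower (Lama4 and Lamb2), where 6.23% of all genes were called (5.23% higher and 0.999% lower). The median log2 fold change was 0.94 over leukocyte rows, -0.26 over matrix-binding integrins and -0.77 over laminin chains, beside -0.03 over all genes. The count of lower calls moved most with the fit. Samples with the same replicate number deviated together in these 2 groups (correlations 0.12, 0.28 and 0.43), and unlike-numbered pairs ran from -0.42 to 0.18. Unlike-numbered pairs of CC4:4 and Control reached 0.40, so these values do not establish a pairing. With the replicate number as a block there was 1 lower call in the fit of all samples and 9 in a fit of the 6 samples compared, an alternative chosen after seeing the data. Higher calls numbered 6 and 5 in those fits. Against Control, VP4:2 had 12 members higher and 4 lower, where 18.9% of all genes were called (9.3% higher and 9.57% lower). Without Control replicate 1 these were 18 and 5, with Lama4, Itgb5, Itgav, Itgb1, Itga8 and Itga2 gained among the higher (adjusted p 0.00877 to 0.041) and the second Itgae row among the lower (0.0154).

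**Figure D1:**
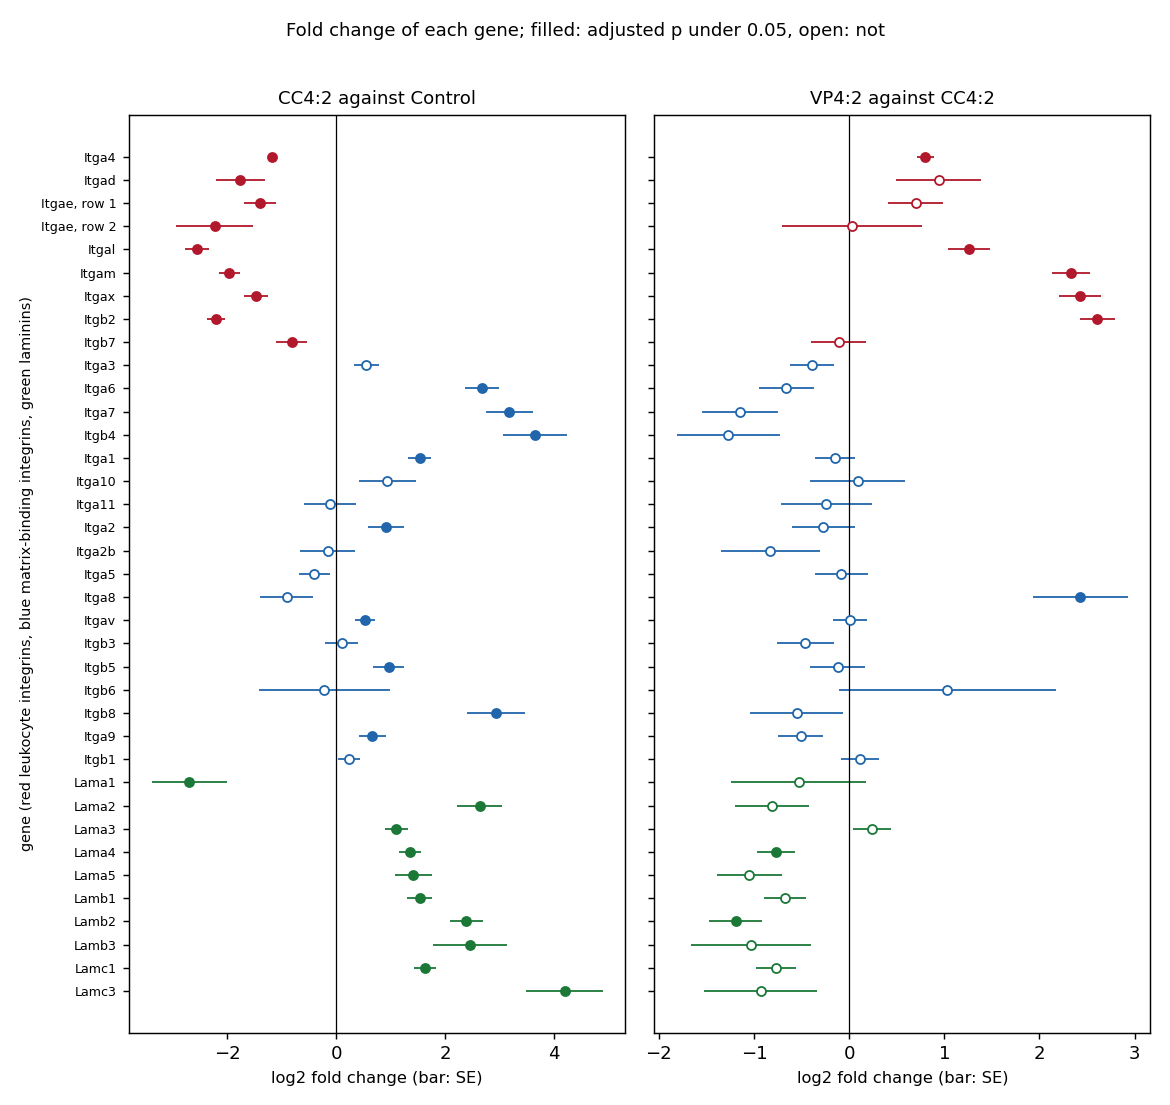
Log2 fold change of 37 of the 38 rows (points) with its SE (bars), for CC4:2 against Control on the left and VP4:2 against CC4:2 on the right; filled points were called and colours part the leukocyte integrins, the matrix-binding integrins and the laminins. The 9 leukocyte rows lie left of 0 in the left panel, from -2.56 to -0.82, and 8 of them lie right of 0 in the right panel, where 9 of the 10 laminin chains shown lie left of 0.

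Itgb2 encodes the beta2 subunit shared by the alphaL, alphaM, alphaX and alphaD integrins of leukocytes. It was at 314, 275 and 327 CPM in Control, 326, 246 and 275 in CC4:4, 74.9, 64.7 and 59.1 in CC4:2, and 347, 397 and 466 in VP4:2. All CC4:2 samples lay below all others, and all VP4:2 samples lay above every Control and CC4:4 sample. The log2 fold change was -2.21 (SE 0.17, adjusted p = 2.48e-05) for CC4:2 against Control and -2.09 (SE 0.17, adjusted p = 4.71e-05) against CC4:4. For VP4:2 it was 2.61 (SE 0.18, adjusted p = 8.99e-05) against CC4:2, and 0.40 (SE 0.17, adjusted p = 0.117) against Control, which did not pass the test. Because these are bulk samples, fewer leukocytes and less of these transcripts per leukocyte cannot be told apart.

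Itgam encodes alphaM, which with beta2 forms complement receptor 3 of macrophages and neutrophils. Its level was 180.4, 151 and 258 CPM in Control, 187, 149.8 and 151 in CC4:4, 48.9, 53.2 and 49 in CC4:2, and 224, 246 and 291 in VP4:2. The CC4:2 samples were again the lowest, with no overlap, and VP4:2 overlapped Control through Control replicate 3. Itgam fell in CC4:2 against Control, with a log2 fold change of -1.96 (SE 0.20, adjusted p = 8.52e-05), and rose in VP4:2 against CC4:2 by 2.33 (SE 0.20, adjusted p = 0.000199). VP4:2 against Control gave 0.37 (SE 0.19, adjusted p = 0.206), not called.

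Itgax encodes alphaX, the CD11c chain of dendritic cells and of some activated macrophages. The level was 52.2, 58.9 and 65 CPM in Control, 63.7, 36.7 and 59.3 in CC4:4, 22.8, 21.9 and 18.8 in CC4:2, and 94.3, 108 and 141 in VP4:2. Every VP4:2 sample stood above every other sample, and every CC4:2 sample below. Of the 9 leukocyte rows, Itgax was the one called higher in VP4:2 than in Control, at 0.96 (SE 0.21, adjusted p = 0.0132). The change was -1.47 (SE 0.22, adjusted p = 0.00049) in CC4:2 against Control and 2.43 (SE 0.22, adjusted p = 0.000253) in VP4:2 against CC4:2. With the NovaSeq samples alone, VP4:2 against Control gave 0.88 with an adjusted p of 0.15.

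Itgam, Itgax and Itgad are consecutive genes on chromosome 1 in the RefSeq annotation of GRCr8. RefSeq promoter windows of 300 bases, 250 before to 50 after the gene start, were at hand for 28 of the 37 symbols. Among those without a window were Itgb2, Itgal, Itgad, Itgb3, Itga6, Itga7, Itgb4 and Lamb2, so the counts below leave out several of the most changed members. They were searched on both strands for GAGGAA, a core of sites for ETS factors such as PU.1 of myeloid cells, GGAATG, the TEAD core, ACAAAG, a SOX core, and TGACTCA, the AP-1 site. Among all 33469 windows of this length, 27.6% held GAGGAA, 14.2% GGAATG, 18.8% ACAAAG and 4.6% TGACTCA. The first of these was found for 2 of 5 leukocyte integrins, 5 of 14 matrix-binding integrins and 5 of 9 laminin chains, GGAATG for 1, 5 and 1, ACAAAG for 1, 3 and 1, and TGACTCA for 1, 0 and 1. Both neighbours that moved together are shown over the bases before the start, 5′ to 3′ on the gene's strand, with GAGGAA in capitals for Itgam, and for Itgax the AP-1 site in capitals, as matched on the other strand.
Itgam, chr1:192089342-192089591, plus strand: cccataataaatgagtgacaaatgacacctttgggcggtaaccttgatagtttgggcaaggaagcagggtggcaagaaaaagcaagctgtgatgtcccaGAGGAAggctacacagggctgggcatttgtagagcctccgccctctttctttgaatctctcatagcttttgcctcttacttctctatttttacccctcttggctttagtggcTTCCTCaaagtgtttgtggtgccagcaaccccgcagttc
Itgax, chr1:192149799-192150048, plus strand: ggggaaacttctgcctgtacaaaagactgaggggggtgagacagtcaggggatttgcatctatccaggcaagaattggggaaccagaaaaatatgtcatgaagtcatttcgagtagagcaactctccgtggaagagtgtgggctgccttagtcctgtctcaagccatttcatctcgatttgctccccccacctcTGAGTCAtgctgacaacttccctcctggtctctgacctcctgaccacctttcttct
The Itgam window holds GAGGAA at -151 and, on the other strand, at -39 from the start, while the Itgax window holds neither GAGGAA nor GGAATG and has its AP-1 match at -56. The Itgax start used by RefSeq lies inside the span of the gene. A match is a description of the letters and not a bound site.

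Itgad, the alphaD subunit of some tissue macrophages, was at a low level, 3.09, 4.92 and 7.03 CPM in Control, 5.28, 6.23 and 2.53 in CC4:4, 1.16, 1.75 and 1.51 in CC4:2, and 1.64, 2.74 and 4.11 in VP4:2. CC4:2 lay below Control and CC4:4 without overlap, and VP4:2 overlapped all other groups, with a mean between those of CC4:2 and CC4:4. It fell in CC4:2 against Control, with a log2 fold change of -1.76 (SE 0.45, adjusted p = 0.0101). Against CC4:4 the change was -1.66 (SE 0.45, adjusted p = 0.0143), a call lost without CC4:2 replicate 1 (adjusted p = 0.0511) or CC4:4 replicate 2 (0.0619). VP4:2 was not called against either group.

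Itgal encodes alphaL, which with beta2 forms LFA-1, the ICAM receptor of lymphocytes and most other leukocytes. It stood at 154, 216 and 258 CPM in Control, 203, 202 and 196 in CC4:4, 25.4, 40.2 and 41 in CC4:2, and 92.8, 82.9 and 80 in VP4:2. The CC4:2 samples were lowest and the VP4:2 samples formed a tight band above them that stayed below every Control and CC4:4 sample. Itgal fell in CC4:2 against Control, at -2.56 (SE 0.22, adjusted p = 4.18e-05), rose in VP4:2 against CC4:2 by 1.26 (SE 0.22, adjusted p = 0.00577), and was still lower in VP4:2 than in Control at -1.30 (SE 0.22, adjusted p = 0.00538). Itgam and Itgal thus had opposite signs of the VP4:2 against Control fold change, 0.37 and -1.30, although the difference between those 2 genes was not tested.

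Itga4 encodes alpha4, the VCAM-1 and fibronectin receptor chain of lymphocytes and monocytes. It was at 55, 54.2 and 56.5 CPM in Control, 49.7, 50.8 and 50.2 in CC4:4, 24.5, 24.9 and 24.3 in CC4:2, and 44.3, 39.6 and 44.7 in VP4:2. The spread within a group was small and no groups overlapped, with Control highest, then CC4:4, VP4:2 and CC4:2. The change was -1.17 (SE 0.09, adjusted p = 2.29e-05) in CC4:2 against Control and 0.80 (SE 0.09, adjusted p = 0.000563) in VP4:2 against CC4:2. VP4:2 against Control gave -0.37 (SE 0.09, adjusted p = 0.0208), a call lost when VP4:2 replicate 1 or 2, or Control replicate 2 or 3, was left out (adjusted p 0.052 to 0.0877), and at -0.13 when counts were scaled by library totals only, which moved the median of all genes from -0.04 to 0.20.

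Itgb7 encodes beta7, the partner of alpha4 and alphaE on gut-homing and intraepithelial lymphocytes. Its level was 22.3, 30.4 and 38.3 CPM in Control, 42.4, 39.8 and 21.4 in CC4:4, 15.5, 19.3 and 16.6 in CC4:2, and 12, 21.1 and 14.7 in VP4:2. CC4:2 lay below Control and CC4:4, and VP4:2 was as low as CC4:2 and overlapped it. The calls were near the threshold, -0.82 (SE 0.29, adjusted p = 0.0423) for CC4:2 against Control, -1.01 (SE 0.29, adjusted p = 0.0194) against CC4:4 and -0.93 (SE 0.29, adjusted p = 0.04976) for VP4:2 against Control. The first was lost when any CC4:2 sample, or Control replicate 2 or 3, was left out (0.0632 to 0.173). The second was lost when replicate 1 of either group, CC4:2 replicate 3 or CC4:4 replicate 2 was left out (0.0533 to 0.0757), and the last when any VP4:2 sample, or Control replicate 2 or 3, was left out (0.0509 to 0.194).

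Itgae, the alphaE chain of intraepithelial lymphocytes and some dendritic cells, stands on 2 rows of the table. Reads may be shared between them, so both are uncertain. The first row (ENSRNOG00000046639) was at 16, 7.57 and 16.2 CPM in Control, 10.3, 7.66 and 9.51 in CC4:4, 5.56, 4.79 and 4.7 in CC4:2, and 6.41, 10.1 and 7.9 in VP4:2. CC4:2 lay below Control and CC4:4 without overlap. The change was -1.40 (SE 0.29, adjusted p = 0.00328) in CC4:2 against Control and -0.87 (SE 0.29, adjusted p = 0.0354) against CC4:4, the latter lost without any CC4:2 sample or CC4:4 replicate 1 or 3 (adjusted p 0.0583 to 0.0932). The second row (ENSRNOG00000070390) was low, at 0.0564 to 2.5 CPM, and its fall in CC4:2 against Control, -2.23 (SE 0.71, adjusted p = 0.0263), was lost without replicate 2 or replicate 3 of either group (0.0512 to 0.0885).

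**Figure D2:**
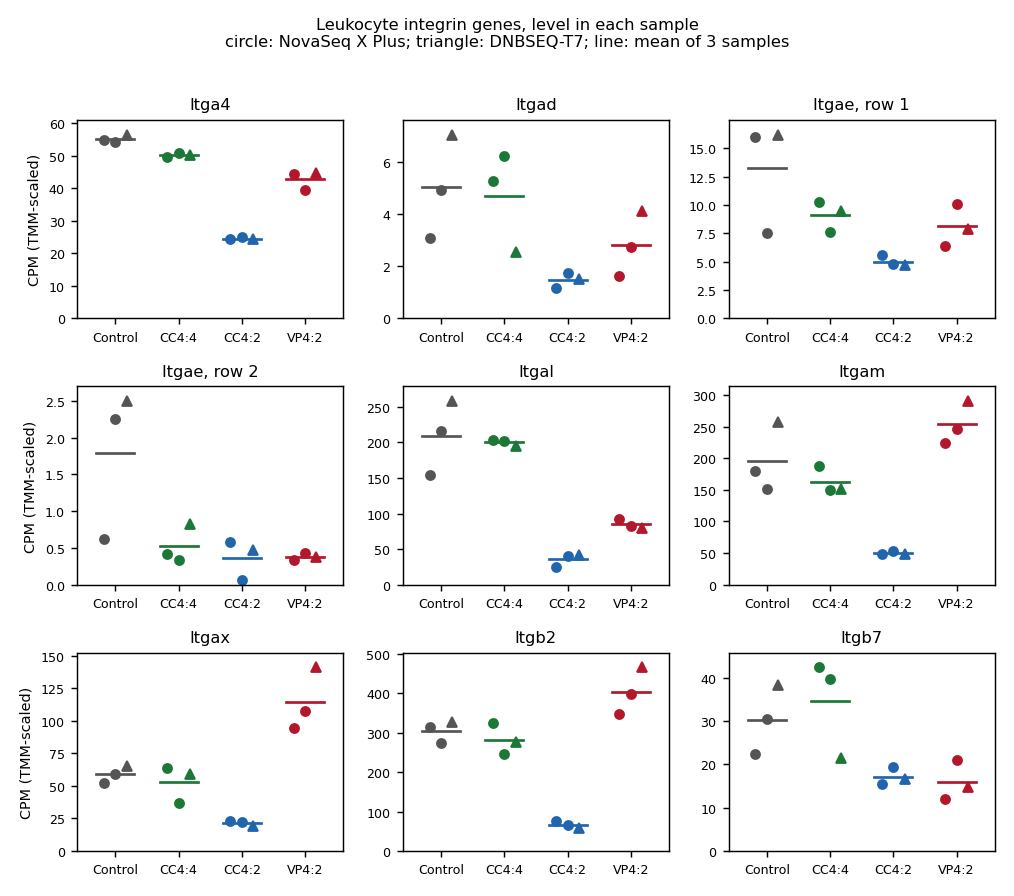
Level in TMM-scaled CPM of the 9 leukocyte integrin rows in each of the 12 samples (circles NovaSeq X Plus, triangles DNBSEQ-T7, lines the mean of 3 samples). Itgb2, Itgam and Itgax stand lowest in CC4:2 and highest on average in VP4:2, whereas the VP4:2 samples of Itgal, at 80 to 92.8 CPM, stay below the lowest Control sample at 154 CPM.

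Markers of several leukocytes moved with these genes. The summed level of 10 macrophage markers was 5429 to 11814 CPM in Control, 4778 to 5703 in CC4:4, 1699 to 2239 in CC4:2 and 4067 to 6273 in VP4:2. Lyz2 gave the largest part of that sum, with means of 5703.8, 3497.2, 697.5 and 2983.6 CPM in Control, CC4:4, CC4:2 and VP4:2. Csf1r, Mrc1, C1qc and Cd163 were not called in CC4:2 against Control. Neutrophil markers (8 genes) summed to 267 to 535, 271 to 705, 9.36 to 15.1 and 11.6 to 16.7 CPM in the same order, so VP4:2 was as low as CC4:2. T and NK cell markers (8 genes) summed to 158 to 331, 175 to 275, 14.7 to 46.1 and 62.2 to 78.8 CPM. B and plasma cell markers (7 genes) summed to 759 to 6937, 2506 to 5632, 12.5 to 190 and 325 to 1182 CPM. In CC4:2 against Control 6 of 10 macrophage, 6 of 7 tested neutrophil, 7 of 8 T and NK cell and 7 of 7 B and plasma cell markers fell, beside 23.2% of all genes. In VP4:2 against CC4:2 5 of 10 macrophage, 2 of 8 T and NK cell and 1 of 7 B and plasma cell markers rose, beside 5.23% of all genes. In the same comparison 0 of 7 neutrophil markers were called by edgeR (0 at an unadjusted p under 0.05, beside 22.1% of all genes). Of the 7 B and plasma cell markers 6 had an unadjusted p under 0.05, and their median log2 fold change was 2.49, beside 0.88 for the macrophage markers. The part of these cells in the integrin differences was not tested.

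**Figure D3:**
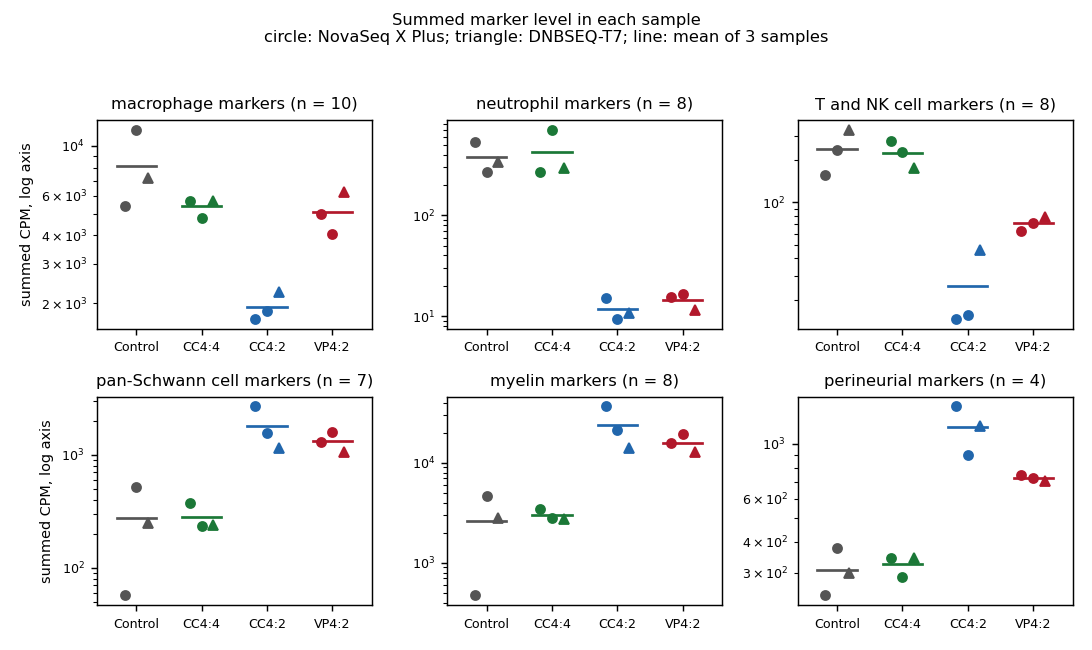
Summed level in CPM, on log axes, of macrophage, neutrophil, T and NK cell, Schwann cell, myelin and perineurial markers in each of the 12 samples (circles NovaSeq X Plus, triangles DNBSEQ-T7, lines the mean of 3 samples). Neutrophil sums are at most 16.7 CPM in CC4:2 and VP4:2 and at least 267 CPM in Control, while macrophage sums in VP4:2, 4067 to 6273 CPM, overlap those of Control. Lyz2 has the highest mean of the macrophage markers in every group.

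The 4 laminin-binding subunits include the largest rises among the integrins in CC4:2 against Control. Itgb4, the beta4 subunit of the alpha6beta4 laminin receptor of Schwann cells and perineurial cells, was at 92.6, 522 and 160.0 CPM in Control, 353, 167 and 343 in CC4:4, 3326, 3431 and 2941 in CC4:2, and 1396, 1599.9 and 1032 in VP4:2. The 3 CC4:2 samples lay close together and above all others, the VP4:2 samples stood between them and the rest, and Control varied widely, with replicate 2 far above replicate 1. Itgb4 rose in CC4:2 against Control by a log2 fold change of 3.65 (SE 0.59, adjusted p = 0.000812) and against CC4:4 by 3.49 (SE 0.58, adjusted p = 0.00125). VP4:2 was higher than Control at 2.38 (SE 0.56, adjusted p = 0.0166), a call lost without Control replicate 3 (adjusted p = 0.0686) or VP4:2 replicate 2 (0.054). The difference of VP4:2 from CC4:2, -1.27 (SE 0.54, adjusted p = 0.195), did not pass the test in the fit of all samples and passed in the fit of the 6 samples, both with the replicate block (0.0112) and without it (0.0149).

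Itga6, the alpha6 subunit that pairs with beta1 or beta4, was at 79.9, 173 and 104 CPM in Control, 161, 120.4 and 171 in CC4:4, 1002, 596 and 667 in CC4:2, and 469, 529.5 and 435 in VP4:2. All CC4:2 samples were above all VP4:2 samples, and these above all Control and CC4:4 samples. Itga6 rose in CC4:2 against Control by 2.67 (SE 0.31, adjusted p = 0.000158) and against CC4:4 by 2.32 (SE 0.31, adjusted p = 0.000415), and was higher in VP4:2 than in Control at 2.01 (SE 0.30, adjusted p = 0.00401). VP4:2 against CC4:2 gave -0.66 (SE 0.29, adjusted p = 0.216), not called. CC4:4 against Control gave 0.34 (SE 0.29, adjusted p = 0.981).

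Itga7, the alpha7 subunit of a laminin receptor of muscle and Schwann cells, followed the same order, at 12.3, 39.3 and 20.6 CPM in Control, 51.2, 19.9 and 36.7 in CC4:4, 222, 251 and 181 in CC4:2, and 91, 116 and 88.5 in VP4:2. No VP4:2 sample overlapped another group. The changes were 3.18 (SE 0.43, adjusted p = 0.000343) in CC4:2 against Control, 2.60 (SE 0.42, adjusted p = 0.00107) against CC4:4 and 2.04 (SE 0.41, adjusted p = 0.0101) in VP4:2 against Control. VP4:2 against CC4:2, -1.15 (SE 0.40, adjusted p = 0.125), was not called in the fit of all samples and was called by DESeq2 (adjusted p = 0.0359) and in the 6-sample fits without (0.0126) and with the replicate block (0.00587). Itga3, the alpha3 subunit, which pairs with beta1, was at 9.67, 13.9 and 11.7 CPM in Control, 16, 14.3 and 14.4 in CC4:4, 11.9, 23.2 and 16.5 in CC4:2, and 13.8, 13.9 and 11.8 in VP4:2. Every CC4:4 sample lay above every Control and VP4:2 sample by a narrow margin, and the other pairs of groups overlapped. CC4:4 against Control gave 0.34 (SE 0.23, adjusted p = 0.966), not called. The change of Itga3 in CC4:2 against Control, 0.55 (SE 0.23, adjusted p = 0.0707), passed the test without CC4:2 replicate 1 (0.0154) and with scaling by library totals only (0.0182).

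Among the laminin alpha chains, Lama2 encodes alpha2, the main chain of the Schwann cell basement membrane and the one mutated in merosin-deficient muscular dystrophy. It was at 35.9, 121 and 72 CPM in Control, 101, 59.8 and 88.7 in CC4:4, 569.5, 444 and 409 in CC4:2, and 234, 361 and 214 in VP4:2. The CC4:2 samples lay above all VP4:2 samples, and these above all Control and CC4:4 samples. Lama2 rose in CC4:2 against Control by 2.63 (SE 0.41, adjusted p = 0.000657) and against CC4:4 by 2.51 (SE 0.41, adjusted p = 0.00106). VP4:2 was higher than Control at 1.82 (SE 0.40, adjusted p = 0.0126), a call lost without Control replicate 3 (0.052), and its difference from CC4:2 was -0.81 (SE 0.39, adjusted p = 0.245), not called.

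Lama4 encodes alpha4, a chain of endothelial and endoneurial basement membranes. Its level was 299, 224 and 185 CPM in Control, 336, 269.8 and 309 in CC4:4, 548, 666 and 592 in CC4:2, and 325, 419.7 and 316 in VP4:2. CC4:2 stood above all other groups, and VP4:2 overlapped CC4:4 but not Control. Lama4 rose in CC4:2 against Control by 1.35 (SE 0.20, adjusted p = 0.000566) and against CC4:4 by 0.98 (SE 0.20, adjusted p = 0.00373). It was called lower in VP4:2 than in CC4:2 at -0.77 (SE 0.20, adjusted p = 0.0479), a call lost with the replicate block in the fit of all samples (adjusted p = 0.0704) and without any 1 of the 6 samples (0.0529 to 0.199). VP4:2 against Control, 0.58 (SE 0.20, adjusted p = 0.0655), passed the test without Control replicate 1 (0.013).

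Lama5, the alpha5 chain found in mature vessels, perineurium and epithelia, was at 67.6, 59.7 and 55 CPM in Control, 106, 58.3 and 77.9 in CC4:4, 101, 247 and 136 in CC4:2, and 66.6, 107 and 59.6 in VP4:2. CC4:2 replicate 2 stood far above the other samples of its group. The change was 1.41 (SE 0.34, adjusted p = 0.00764) in CC4:2 against Control. Against CC4:4 it was 1.00 (SE 0.34, adjusted p = 0.0385), a call lost without CC4:2 replicate 2 (0.176) or CC4:4 replicate 2 or 3 (0.142 and 0.0993). VP4:2 overlapped Control (0.35 (SE 0.34, adjusted p = 0.491)) and gave -1.05 (SE 0.34, adjusted p = 0.1) against CC4:2, which passed the test in DESeq2 (0.0229) and in the 6-sample fit with the replicate block (0.0201).

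Lama3, the alpha3 chain of epithelial basement membranes, was the chain whose VP4:2 level was not below that of CC4:2, at 12.2, 8.59 and 10.9 CPM in Control, 14, 8.81 and 14.4 in CC4:4, 21.2, 26.4 and 20.2 in CC4:2, and 25.5, 28.8 and 25.8 in VP4:2. CC4:2 and VP4:2 overlapped, and both lay above every Control and CC4:4 sample. Lama3 was higher in CC4:2 than in Control at 1.10 (SE 0.21, adjusted p = 0.00198), and in VP4:2 than in Control at 1.33 (SE 0.21, adjusted p = 0.00452), with 0.24 (SE 0.20, adjusted p = 0.521) for VP4:2 against CC4:2. Its promoter window was the one among laminins with TGACTCA matches.

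Lama1, the alpha1 chain of early embryonic basement membranes, was the laminin called lower than in Control. It stood at 0.843, 10.2 and 4.93 CPM in Control, 1.88, 2.37 and 1.37 in CC4:4, 0.741, 0.902 and 0.783 in CC4:2, and 0.384, 0.752 and 0.541 in VP4:2. Control replicate 1 lay within the range of the CC4:2 samples, and the other Control samples far above it. The change was -2.70 (SE 0.69, adjusted p = 0.0098) in CC4:2 against Control and -3.22 (SE 0.71, adjusted p = 0.0135) in VP4:2 against Control. Without Control replicate 1 these were -3.21 (0.000307) and -3.73 (0.000851), the latter call was lost without VP4:2 replicate 1 (0.0581), and limma-voom gave no call for either (0.12 and 0.122).

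The beta and gamma chains of the common nerve laminins changed as Lama2 and Lama4 did. Lamb1, the beta1 chain, was at 333, 271 and 215 CPM in Control, 337, 275 and 306 in CC4:4, 879, 841 and 655 in CC4:2, and 474, 626 and 391 in VP4:2. Lamb2, the beta2 chain, was at 139.6, 237 and 149 CPM in Control, 283, 153 and 225 in CC4:4, 817, 1108 and 836 in CC4:2, and 355, 507 and 350.0 in VP4:2. In both genes every CC4:2 sample stood above every other sample and every VP4:2 sample above every Control and CC4:4 sample. Lamb1 rose in CC4:2 against Control by 1.53 (SE 0.23, adjusted p = 0.000514) and Lamb2 by 2.39 (SE 0.30, adjusted p = 0.000212). Lamb2 was called lower in VP4:2 than in CC4:2 at -1.19 (SE 0.28, adjusted p = 0.0341), a call lost without any 1 CC4:2 sample (0.0574 to 0.113) or VP4:2 replicate 1 or 3 (0.131 and 0.149). It was kept with the replicate block in the fit of all samples (adjusted p = 0.0488) and in the 6-sample fit (0.00719). Lamb1 gave -0.67 (SE 0.22, adjusted p = 0.11), called only in the 6-sample fit with the block (0.0398) and by DESeq2 (0.0207). Against Control, VP4:2 gave 0.86 (SE 0.22, adjusted p = 0.0243) for Lamb1 and 1.21 (SE 0.28, adjusted p = 0.0172) for Lamb2, both lost without Control replicate 3 (0.0793 and 0.0706) or VP4:2 replicate 2 (0.0972 and 0.0681), and that of Lamb1 also without VP4:2 replicate 1 (0.0625).

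Lamc1 encodes gamma1, the gamma chain of most laminins. It was at 371, 363 and 264 CPM in Control, 482, 347 and 466 in CC4:4, 949.9, 1148 and 995 in CC4:2, and 553, 728 and 529 in VP4:2. The order was again CC4:2 above VP4:2 above Control and CC4:4, with no overlap between those 3 tiers. Lamc1 rose in CC4:2 against Control by 1.63 (SE 0.21, adjusted p = 0.000266) and against CC4:4 by 1.26 (SE 0.21, adjusted p = 0.00123). VP4:2 against CC4:2 gave -0.77 (SE 0.21, adjusted p = 0.0521), just over the threshold, and it was called with the replicate block in the 6-sample fit (0.0232), in the same fit without the block (0.0467), by DESeq2 (0.00154), by limma-voom and with RLE scaling (both 0.0471). VP4:2 was higher than Control at 0.86 (SE 0.21, adjusted p = 0.0188), a call lost without Control replicate 3 (0.0661) or VP4:2 replicate 2 (0.0758).

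Lamc3, the gamma3 chain, was low in Control and gave the largest log2 fold change of all members in CC4:2 against Control. It was at 0.675, 3.44 and 1.29 CPM in Control, 10.2, 1.42 and 3.97 in CC4:4, 26.2, 41.1 and 29.8 in CC4:2, and 15.5, 20.5 and 15.1 in VP4:2. All CC4:2 samples were above all VP4:2 samples, and these above all Control and CC4:4 samples. The change was 4.19 (SE 0.70, adjusted p = 0.00099) in CC4:2 against Control, 2.63 (SE 0.63, adjusted p = 0.0081) against CC4:4, 3.26 (SE 0.68, adjusted p = 0.0111) in VP4:2 against Control and -0.93 (SE 0.59, adjusted p = 0.391) in VP4:2 against CC4:2. The last was not called in the fit of all samples and was called in the 6-sample fits without (0.0453) and with the replicate block (0.0122).

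Lamb3, a beta chain of epithelial laminin, was low, at 0.45, 1.33 and 1.94 CPM in Control, 3.52, 6.03 and 0.616 in CC4:4, 5.93, 7.84 and 6.21 in CC4:2, and 2.8, 3.28 and 3.73 in VP4:2. CC4:2 lay above Control without overlap, and CC4:4 varied widely, with replicate 3 within the range of Control. Lamb3 rose in CC4:2 against Control by 2.45 (SE 0.68, adjusted p = 0.0143). Of 5 keratinocyte markers measured, Ivl was at 0 in every sample, and the sum of the others was 3.73 to 10.8 CPM over all samples.

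**Figure D4:**
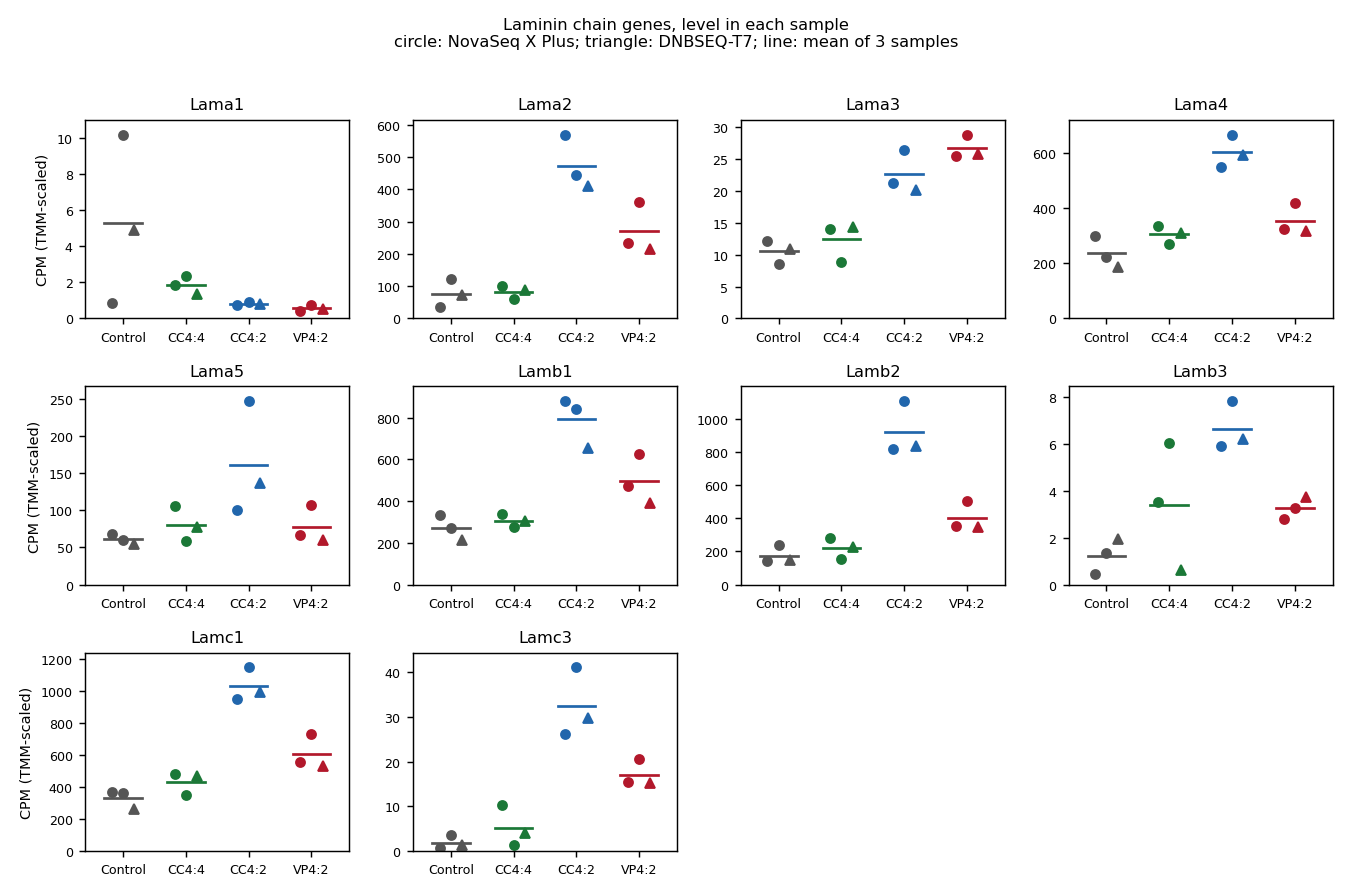
Level in TMM-scaled CPM of 10 of the 11 laminin chains in each of the 12 samples (circles NovaSeq X Plus, triangles DNBSEQ-T7, lines the mean of 3 samples). Lamb1, Lamb2 and Lamc1 show the 3 tiers, with Lamc1 at 950 to 1148 CPM in CC4:2, 529 to 728 in VP4:2 and 264 to 482 in Control and CC4:4, while Lama1 is highest in 2 Control samples.

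The TEAD core GGAATG stood in 5 of 14 windows of matrix-binding integrins and 1 of 9 of laminin chains, beside 14.2% of all windows. Of those integrins Itga10, Itga2b, Itga3 and Itgb1 were not called in any comparison in the fit of all samples, and Itgb8 was. The Lamc1 window is shown as that of the one laminin with a GGAATG match, on the other strand at -213, and the Itgb8 window as that of the RGD-binding subunit with the largest rise and a match at -183. Both are the bases before the start, 5′ to 3′ on the gene's strand, with the match in capitals.
Lamc1, chr13:68051987-68052236, minus strand: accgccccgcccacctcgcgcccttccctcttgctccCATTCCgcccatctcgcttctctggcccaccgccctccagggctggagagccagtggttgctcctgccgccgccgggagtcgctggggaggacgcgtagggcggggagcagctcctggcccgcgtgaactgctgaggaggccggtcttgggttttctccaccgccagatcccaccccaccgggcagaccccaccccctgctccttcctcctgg
Itgb8, chr6:146351246-146351495, minus strand: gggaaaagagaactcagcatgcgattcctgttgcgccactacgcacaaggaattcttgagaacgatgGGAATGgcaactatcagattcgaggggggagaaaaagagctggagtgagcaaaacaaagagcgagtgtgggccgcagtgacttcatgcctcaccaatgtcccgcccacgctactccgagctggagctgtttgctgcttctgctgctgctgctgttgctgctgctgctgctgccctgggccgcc
Nothing is read from these matches about TEAD binding.

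Schwann cell, myelin and perineurial markers moved with the laminin receptors and laminin chains. Myelin markers (8 genes) summed to 473 to 4676 CPM in Control, 2754 to 3444 in CC4:4, 14181 to 36991 in CC4:2 and 12889 to 19241 in VP4:2. Perineurial markers without Itgb4 (4 genes) summed to 242 to 379, 289 to 345, 898 to 1426 and 708 to 745 CPM in the same order. In CC4:2 against Control 6 of 7 Schwann cell markers and 8 of 8 myelin markers rose, beside 20.3% of all genes. In VP4:2 against CC4:2 0 of either were called by edgeR (0 of each at an unadjusted p under 0.05, beside 22.1% of all genes). Endothelial markers (8 genes), whose cells also make laminins, summed to 645 to 1321, 988 to 1463, 1073 to 1741 and 957 to 1124 CPM. Markers of other cells rose too in CC4:2 against Control, 8 of 8 adipocyte markers with a median log2 fold change of 4.15, 6 of 8 nerve fibroblast markers with 1.32 and 5 of 9 mast cell markers with 1.75, beside 2.72 for the Schwann cell list. Adipocyte markers summed to 239 to 442 CPM in Control, 333 to 1463 in CC4:4, 930 to 2690.0 in CC4:2 and 1175 to 2646 in VP4:2. Nerve fibroblast sums overlapped between CC4:2 (3064 to 4346 CPM) and Control (1749 to 5334). In VP4:2 against CC4:2 edgeR called 0 markers of these 3 lists (0 adipocyte, 2 nerve fibroblast and 1 mast cell marker at an unadjusted p under 0.05). The part of cell content in the laminin and integrin differences was not tested.

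Of the 4 collagen-binding alpha subunits, Itga1 was the clearest. It encodes alpha1, a receptor of basement membrane collagen, and was at 27.9, 17.6 and 17.1 CPM in Control, 36.6, 31.3 and 31.5 in CC4:4, 51.9, 61 and 68.6 in CC4:2, and 67.3, 50.1 and 46.1 in VP4:2. CC4:2 and VP4:2 overlapped each other and lay above CC4:4, and CC4:4 lay above Control. Itga1 rose in CC4:2 against Control by 1.53 (SE 0.21, adjusted p = 0.000395) and against CC4:4 by 0.87 (SE 0.21, adjusted p = 0.00847), and was higher in VP4:2 than in Control at 1.38 (SE 0.21, adjusted p = 0.00452). Itga2, the alpha2 subunit of platelets and epithelia, was at 4.05, 2.34 and 1.94 CPM in Control, 4.34, 2.37 and 2.94 in CC4:4, 5.08, 4.06 and 6.79 in CC4:2, and 4.17, 4.4 and 4.6 in VP4:2. CC4:2 lay above Control by a narrow margin, and the call, 0.92 (SE 0.33, adjusted p = 0.0437), ended when CC4:2 replicate 1 or 3, or Control replicate 2 or 3, was left out (0.0744 to 0.146). Itga11, the alpha11 subunit of fibroblasts, was at 173, 49 and 63.6 CPM in Control, 128, 153 and 144 in CC4:4, 40.7, 132 and 91.7 in CC4:2, and 95.5, 70.9 and 56.9 in VP4:2, with Control replicate 1 and CC4:2 replicate 2 far from the rest of their groups and all groups but CC4:4 and VP4:2 overlapping. Itga10, the alpha10 subunit of cartilage, stayed between 0.404 to 2.63 CPM, and neither it nor Itga11 was called in any comparison.

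Among the RGD-binding subunits, which recognize fibronectin, vitronectin or latent TGF-beta through an Arg-Gly-Asp motif, Itgb8 stood out. Itgb8 encodes beta8, the partner of alphav in the activation of latent TGF-beta, and was at 8.38, 40.4 and 25.6 CPM in Control, 41.2, 26 and 22.1 in CC4:4, 296, 142 and 126 in CC4:2, and 120.4, 155 and 112 in VP4:2. CC4:2 and VP4:2 overlapped and lay above every Control and CC4:4 sample, with CC4:2 replicate 1 well above the others. It rose in CC4:2 against Control by 2.93 (SE 0.53, adjusted p = 0.00154), against CC4:4 by 2.66 (SE 0.52, adjusted p = 0.00291), and in VP4:2 against Control by 2.38 (SE 0.52, adjusted p = 0.0125). VP4:2 against CC4:2 gave -0.55 (SE 0.49, adjusted p = 0.548).

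Itga8 encodes alpha8, the nephronectin receptor chain of contractile and mesenchymal cells. It was the matrix-binding integrin called higher in VP4:2 than in CC4:2. It was at 35.5, 15.1 and 13.1 CPM in Control, 25.1, 32.5 and 32.5 in CC4:4, 6.72, 13.6 and 13.6 in CC4:2, and 106, 43.3 and 33.5 in VP4:2. VP4:2 lay above CC4:2 and CC4:4 without overlap, and VP4:2 replicate 1 stood far above the other samples of its group. The change was 2.43 (SE 0.50, adjusted p = 0.0173) in VP4:2 against CC4:2 and -1.41 (SE 0.49, adjusted p = 0.0423) in CC4:2 against CC4:4. The first call was lost without CC4:2 replicate 1 or 2 or VP4:2 replicate 1 (0.0559 to 0.067) and in the 6-sample fit with the replicate block (0.0548). The second was lost without any 1 of its 6 samples (0.0582 to 0.13). VP4:2 against Control, 1.52 (SE 0.49, adjusted p = 0.0523), passed the test without Control replicate 1 (0.0133) or VP4:2 replicate 3 (0.0458). Pericyte and smooth muscle markers (8 genes) summed to 912 to 2046 CPM in Control, 1685 to 2151 in CC4:4, 1054 to 1597 in CC4:2 and 1261 to 2571 in VP4:2, where replicate 1 was also the highest, and their part was not tested.

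Itgav, the alphav subunit, was at 171, 123 and 145 CPM in Control, 145, 131 and 173 in CC4:4, 259, 184 and 192 in CC4:2, and 233, 217 and 191 in VP4:2. Itgb5, the beta5 subunit, which pairs with it, was at 140.1, 92 and 71.4 CPM in Control, 108, 84.2 and 156 in CC4:4, 167, 258 and 167 in CC4:2, and 168, 204 and 171 in VP4:2. In both genes CC4:2 lay above Control without overlap and VP4:2 overlapped CC4:2. The changes in CC4:2 against Control were 0.53 (SE 0.18, adjusted p = 0.037) for Itgav and 0.96 (SE 0.29, adjusted p = 0.0213) for Itgb5. Leaving out CC4:2 replicate 1, Control replicate 2 or Control replicate 3 ended the call of Itgav (0.0664 to 0.138), and leaving out CC4:2 replicate 2 or either of those Control samples that of Itgb5 (0.0528 to 0.0851). Itgav was also called against CC4:4 at 0.50 (SE 0.18, adjusted p = 0.04995), which ended when replicate 1 of either group, CC4:2 replicate 3 or CC4:4 replicate 2 was left out (0.0602 to 0.18).

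The other 4 RGD-binding subunits were not called in any comparison in the fit of all samples. Itga5, the alpha5 fibronectin receptor chain, was at 152, 80.7 and 89.4 CPM in Control, 131, 116 and 131 in CC4:4, 52.2, 115 and 77.1 in CC4:2, and 79.5, 79.5 and 71.8 in VP4:2. Its CC4:2 samples lay below all CC4:4 samples, and the change against CC4:4, -0.63 (SE 0.28, adjusted p = 0.0993), passed the test without CC4:2 replicate 2 (0.023), whereas against Control it was -0.40 (SE 0.28, adjusted p = 0.273). Itgb3, the beta3 subunit of platelets, osteoclasts and endothelium, was at 31.4, 14.5 and 11.1 CPM in Control, 20, 16.9 and 19 in CC4:4, 21.5, 21.8 and 18 in CC4:2, and 14.8, 15.5 and 14.3 in VP4:2, with Control replicate 1 above all other samples. Without that sample, CC4:2 was higher than Control at 0.68 (SE 0.16, adjusted p = 0.00618), against 0.10 and 0.811 with it. Its platelet partner Itga2b ranged from 1.32 to 6.78 CPM and Itgb6, an epithelial subunit, from 0 to 1.62 CPM.

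Itgb1 encodes beta1, the common partner of most matrix-binding alpha subunits. It was at 815, 494 and 499.9 CPM in Control, 676, 663 and 724 in CC4:4, 709, 678 and 752 in CC4:2, and 826, 724 and 758 in VP4:2. Control replicate 1 stood among the highest samples and the other Control samples were the lowest of all 12, so the groups overlapped. No comparison was called, with 0.24 (SE 0.20, adjusted p = 0.349) for CC4:2 against Control, 0.11 (SE 0.20, adjusted p = 0.785) for VP4:2 against CC4:2 and 0.35 (SE 0.20, adjusted p = 0.239) for VP4:2 against Control. Without Control replicate 1, CC4:2 was higher than Control at 0.52 (0.0101) and VP4:2 at 0.63 (0.00877). Itga9, the alpha9 subunit, a beta1 partner that binds tenascin-C and osteopontin, was at 32.7, 22.8 and 19.1 CPM in Control, 29.2, 25.7 and 33 in CC4:4, 30, 44.8 and 43 in CC4:2, and 25.2, 35.7 and 22 in VP4:2. CC4:2 replicate 1 lay within the Control range, and the call against Control, 0.66 (SE 0.25, adjusted p = 0.04953), was lost without replicate 2 or replicate 3 of either group (0.106 to 0.142).

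**Figure D5:**
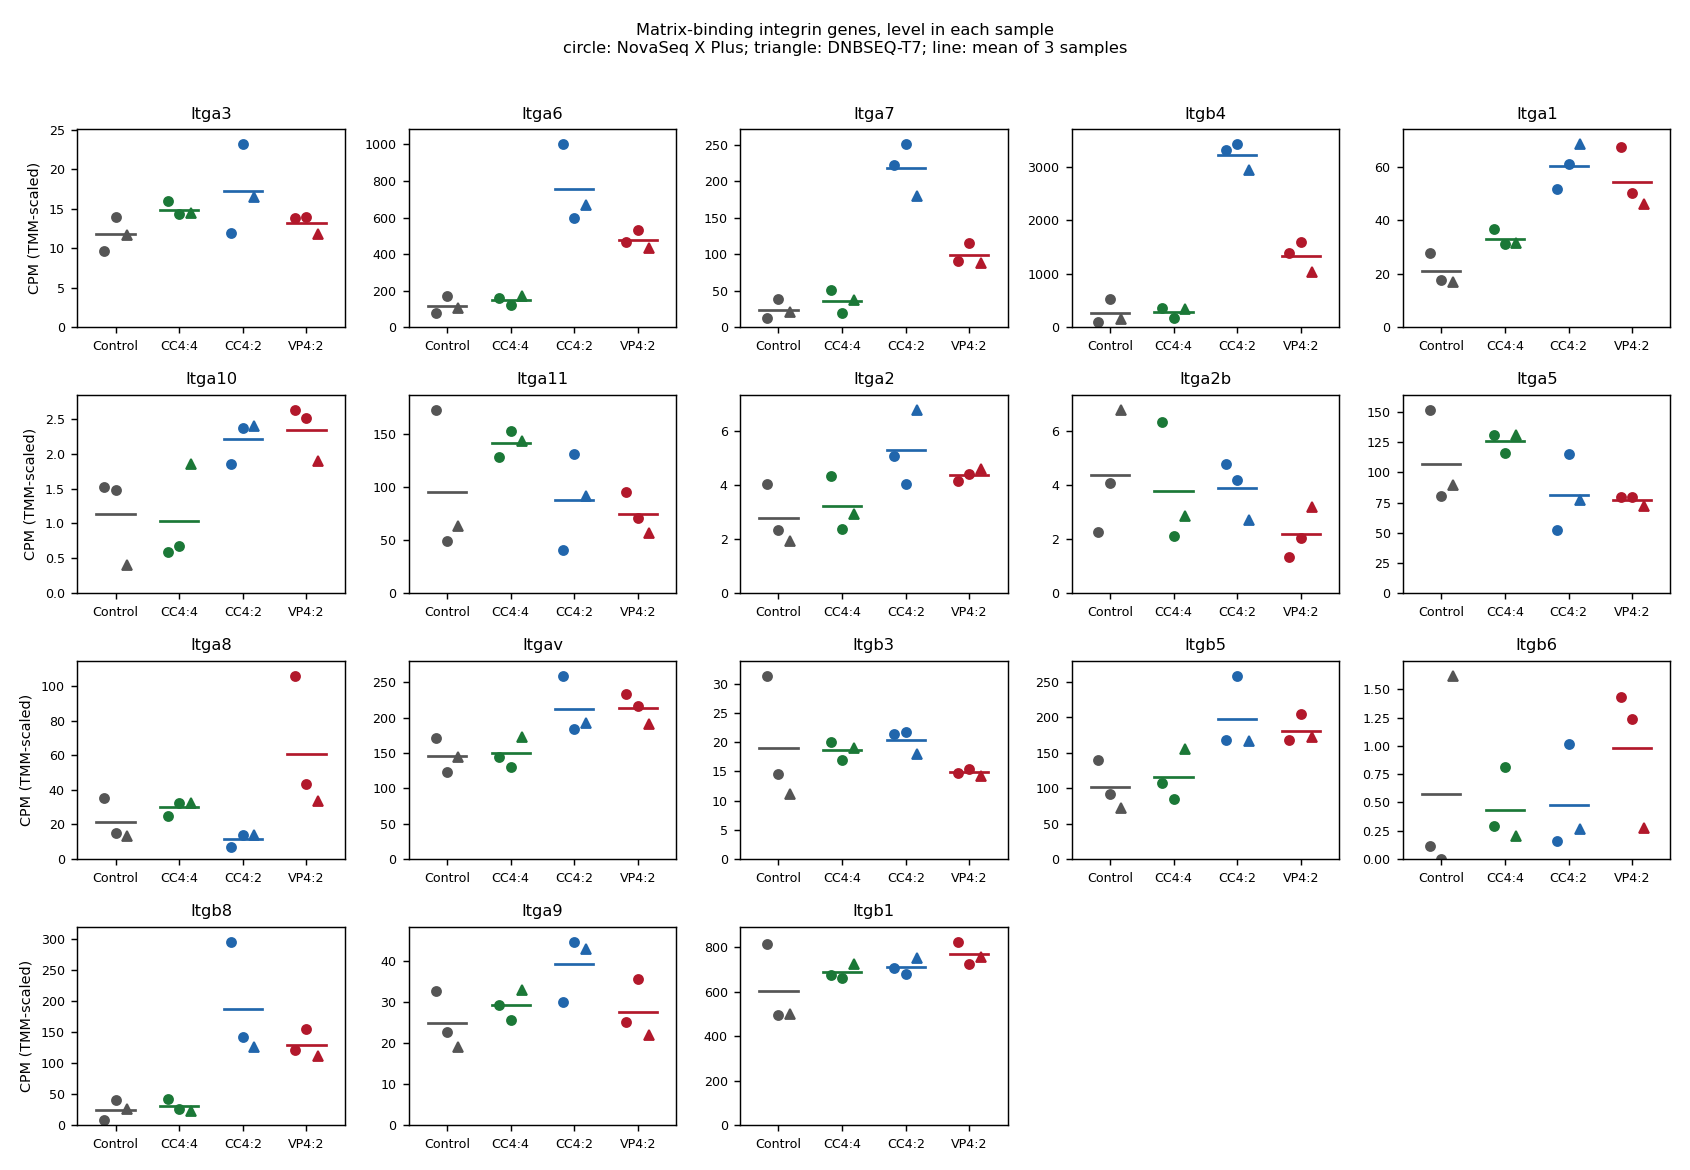
Level in TMM-scaled CPM of the 18 matrix-binding integrins in each of the 12 samples (circles NovaSeq X Plus, triangles DNBSEQ-T7, lines the mean of 3 samples). Itgb4 lies between 2941 and 3431 CPM in CC4:2, between 1032 and 1600 in VP4:2 and between 92.6 and 522 in Control and CC4:4, whereas Itgb1 keeps within 494 to 826 CPM over all samples.

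The partners of these genes were taken from lists of known ligands, adaptors and receptors. Of 12 basement membrane partners of laminins, 9 rose and 0 fell in CC4:2 against Control, where 20.3% of all genes rose and 23.2% fell. Nid2, a nidogen that links laminin to collagen IV, went from 55.9 ± 13.3 CPM in Control to 261 ± 36 in CC4:2 (SD, n = 3), a log2 fold change of 2.22 (SE 0.26, adjusted p = 0.000171). Hspg2, the proteoglycan perlecan, changed by 2.31 (SE 0.37, adjusted p = 0.000781) and Col4a5, a collagen IV chain, by 2.13 (SE 0.33, adjusted p = 0.000687). In VP4:2 against CC4:2, 2 of the 12 fell, where 0.999% of all genes fell. These were Nid2 at -1.13 (SE 0.25, adjusted p = 0.0255) and Col4a5 at -1.77 (SE 0.33, adjusted p = 0.00941), with 119 ± 18.2 and 17.5 ± 0.497 CPM in VP4:2. The call of Nid2 was lost when replicate 1 of either group, CC4:2 replicate 2 or VP4:2 replicate 3 was left out (0.0764 to 0.123).

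Of 12 genes of the dystroglycan complex and other laminin receptors, 11 rose in CC4:2 against Control, where 20.3% of all genes rose. Dag1, which encodes dystroglycan, rose by 2.10 (SE 0.26, adjusted p = 0.000232), Utrn, utrophin, which links dystroglycan to actin, by 2.17 (SE 0.25, adjusted p = 0.000146) and Bcam, a receptor of laminin alpha5, by 2.09 (SE 0.29, adjusted p = 0.000392). In VP4:2 against CC4:2 all 12 fold changes were below 0 with a median of -0.38. Of these, 0 were called by edgeR, beside 6.23% of all genes (4 of 12 at an unadjusted p under 0.05, beside 22.1% of all genes). Dag1 was at 209.9 ± 42.3 CPM in Control, 902 ± 244.6 in CC4:2 and 598 ± 122.3 in VP4:2.

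Of 15 integrin activators and adaptors tested, 4 rose and 6 fell in CC4:2 against Control, where 20.3% of all genes rose and 23.2% fell. Fermt3, the kindlin of blood cells, fell at a log2 fold change of -2.07 (SE 0.17, adjusted p = 3.4e-05), and Parvg, the parvin of blood cells, at -2.79 (SE 0.17, adjusted p = 7.54e-06). Tln2, one of the talins, rose by 2.26 (SE 0.29, adjusted p = 0.000272). VP4:2 against CC4:2 had 4 rises, where 5.23% of all genes rose. Among them were Fermt3 by 1.66 (SE 0.17, adjusted p = 0.000462), Parvg by 1.54 (SE 0.17, adjusted p = 0.000495) and Parvb, another parvin, by 0.99 (SE 0.17, adjusted p = 0.00646). In VP4:2 Fermt3 reached 83.8 ± 9.15 CPM against 112 ± 24.4 in Control, and Parvg 23.5 ± 4.9 against 56.1 ± 3.94.

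Of 8 tested cell-surface ligands of leukocyte integrins, 3 rose and 2 fell in CC4:2 against Control, where 43.5% of all genes were called. Icam1, the ligand of alphaLbeta2 and alphaMbeta2, fell, at -1.43 (SE 0.22, adjusted p = 0.000689), while Cdh1, the ligand of alphaEbeta7, rose by 2.51 (SE 0.35, adjusted p = 0.000402) and Jam3, a ligand of alphaMbeta2, by 1.78 (SE 0.27, adjusted p = 0.000601). Of the same 8 genes, 0 were called in VP4:2 against CC4:2 by edgeR (2 at an unadjusted p under 0.05, beside 22.1% of all genes). Cdh1 is a Schwann cell adherens junction protein in myelinated nerve as well.

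Of 11 matrix ligands, 3 rose and 2 fell in CC4:2 against Control, a share near the 43.5% of all genes called, and 3 rose in VP4:2 against CC4:2, where 5.23% of all genes rose. Vtn, vitronectin, rose in CC4:2 by 2.56 (SE 0.39, adjusted p = 0.000587), Npnt, the nephronectin bound by alpha8beta1, by 2.30 (SE 0.37, adjusted p = 0.000816) and Fbn1, fibrillin-1, by 1.36 (SE 0.33, adjusted p = 0.00703). Spp1, osteopontin, went from 136 ± 112.4 CPM in CC4:2 to 3678 ± 1807.7 in VP4:2, where Control was at 745 ± 554.4, and rose by 4.75 (SE 0.88, adjusted p = 0.00941). Thbs1, thrombospondin-1, rose by 1.72 (SE 0.42, adjusted p = 0.0358) and Edil3, an alphav ligand, by 2.02 (SE 0.51, adjusted p = 0.041). Spp1 lost its call without CC4:2 replicate 2 (0.0535), Thbs1 without any 1 CC4:2 sample or VP4:2 replicate 1 or 2 (0.0615 to 0.134), and Edil3 without CC4:2 replicate 1 or 2 or any VP4:2 sample (0.0708 to 0.144) and with the replicate block in the fit of all samples (0.0618).

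The labels give the platform on which each sample was read and name no batch. A fit within 1 platform also has fewer samples a group, so a call lost there cannot be told apart from one lost to fewer samples. With the 8 NovaSeq samples, 2 a group, CC4:2 against Control had 13 members higher and 5 lower, where edgeR called 3220 of all genes (6835 with all samples). CC4:2 against CC4:4 had 12 higher and 7 lower, where edgeR called 3253 of all genes (6156 with all samples). VP4:2 against CC4:2 had 3 higher (Itgb2, Itgam and Itgax) and 0 lower, where edgeR called 202 of all genes (979 with all samples). VP4:2 against Control had 0 calls among members and 19 among all genes. Among the members that lost their call against Control in CC4:2 in these samples were Itgb5, Itgav, Itga9, Itga2, Itgb7, Itgad, both Itgae rows, Lama5 and Lama1 (adjusted p 0.0671 to 0.401). In CC4:2 against CC4:4 Itgav, Itga8, Itga1, the first Itgae row, Lama5 and Lamc3 lost theirs (0.0964 to 0.203), as did Fbn1 against Control (0.123) and Itga4, Itgal, Itga8, Lama4, Lamb2, Nid2, Col4a5, Parvg, Parvb, Spp1, Thbs1 and Edil3 in VP4:2 against CC4:2 (0.0512 to 0.366). The DNBSEQ-T7 samples, 1 a group, allow no test.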

How the data were processed

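RNA-seq values of 12 sciatic nerve stumps were used as deposited. The authors deposited expected counts, a value for each gene that can be fractional, and per the submitters' processing notes they used HISAT2, StringTie, RSEM and DESeq2. Versions, genome build and annotation are not given in the sources used here. All 12 files were identical tables, so 11 were not used. Between 9.44% and 11.12% of a sample's values were not whole, and all were rounded. Depth was 13763106 to 18632301 counts per sample. The members and lists were chosen with earlier results of these data known.

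Testing used edgeR 4.0.16 (R 4.3.3, limma 3.58.1) and its quasi-likelihood test, after TMM scaling and filterByExpr. All 12 samples entered 1 fit by group without covariates (8 residual degrees of freedom). Calls needed a p under 0.05 after Benjamini-Hochberg adjustment. The SE was worked back from the fold change and the F statistic. The fit was tested on simulated data. The values of 1 laminin chain are not reported here, though it stays in every count. Every other member is named, with its value in every sample where it was called in any comparison, up to 4 a role by smallest adjusted p, and for Itgb1, Itgb2, Itgb4, Itga6 and Lama2, and the text gives more members than that. Of each partner list, up to 3 genes of smallest adjusted p are named in the CC4:2 against Control comparison, and likewise for VP4:2 against CC4:2 where any was called. No 2 replicates of a group were alike within sampling noise.

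Alternatives were RLE scaling, library totals only, no low-count filter, DESeq2 1.42.0, limma-voom, a replicate block, a platform term, NovaSeq samples only, the 6 samples compared only, and each library left out. Replicate numbers were taken from the titles. In VP4:2 and CC4:2 same-numbered samples deviated together over genes (correlations 0.12, 0.28 and 0.43), and unlike-numbered pairs ran from -0.42 to 0.18. Unlike-numbered pairs of CC4:4 and Control reached 0.40, so these values do not establish a pairing. The block stands beside results of VP4:2 against CC4:2. The labels do not say that a number marks a shared animal or day, and the number and the platform coincide in part.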

Additional observations from a re-analysis of the deposited data

How the results depend on the processing

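Of 76 member calls over the 5 comparisons, 52 held with each library left out in turn and 36 under every setting, and 0 changed sign. By comparison, calls that held throughout were 18 of 29 for CC4:2 against Control, 15 of 23 for CC4:2 against CC4:4, 3 of 8 for VP4:2 against CC4:2 (Itgb2, Itgam and Itgax) and 0 of 16 for VP4:2 against Control. With NovaSeq samples only, lower calls in CC4:2 against Control went from 10 to 5, higher calls in VP4:2 against CC4:2 from 6 to 3 and lower calls from 2 to 0, and calls in VP4:2 against Control from 12 higher and 4 lower to 0 and 0. Lower calls in VP4:2 against CC4:2 were 1 with library totals only, with no low-count filter, with the replicate block and with the platform term, 6 with DESeq2, 7 with the 6 samples only and 9 with those 6 samples and the replicate block. Lower calls in VP4:2 against Control were 2 with library totals only and with limma-voom, and 1 with the 6 samples only. The cause was not tested.

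Leaving out 1 library gave 0 to 1 higher and 0 to 1 lower calls in CC4:4 against Control, 5 to 8 lower calls in CC4:2 against CC4:4, 0 to 1 lower calls in VP4:2 against CC4:2, and 7 to 18 higher and 1 to 5 lower calls in VP4:2 against Control, where the 7 came without Control replicate 3. Over all genes, calls in CC4:2 against Control went from 6835 to 3220 with NovaSeq samples only and 4363 with the 6 samples only, and in CC4:2 against CC4:4 from 6156 to 3253 with NovaSeq samples only. In VP4:2 against CC4:2 they went from 979 to 1861 with DESeq2, 202 with NovaSeq samples only, 1920 with the 6 samples and the block, and 466 to 746 with a library left out. In VP4:2 against Control they went from 2964 to 19 with NovaSeq samples only, 1869 with the 6 samples only, and 1166 to 4294 with a library left out. In CC4:4 against Control they went from 0 to 10 with DESeq2 and 295 without Control replicate 1.

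Scaling by library totals only moved the median log2 fold change of all genes from -0.05 to 0.16 in CC4:2 against Control, from 0.01 to 0.22 in CC4:2 against CC4:4 and from -0.04 to 0.20 in VP4:2 against Control. The split of higher to lower calls over all genes went from 3186 and 3649 to 4278 and 2510, from 2905 and 3251 to 4174 and 2195, and from 1461 and 1503 to 2754 and 896. Itgb2 and Itgam were then called higher in VP4:2 than in Control (0.64 and 0.61, adjusted p = 0.0324 and 0.0493). Outside VP4:2 against CC4:2, same-numbered samples did not deviate together, and the replicate block left each count of higher and lower member calls within 1.5 times. Low counts limit Itgb6, the second Itgae row, Itga10 and Lama1.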

Other observations

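The ratio of a leukocyte integrin to macrophage markers depended on the marker. The mean log2 ratio of Itgb2 to each of 10 macrophage markers was lower in CC4:2 than in Control for 7 markers and higher for 3. To Csf1r it was -0.55 ± 0.30 in Control and -2.22 ± 0.48 in CC4:2, to Cd163 1.85 ± 0.93 and -0.64 ± 0.62, to Cd68 0.20 ± 0.10 and 0.65 ± 0.33, and to Lyz2 -4.10 ± 0.85 and -3.38 ± 0.37 (SD, n = 3). The log2 ratio of Itgam to Itgal was 1.27 to 1.86 in VP4:2, above every other sample, the next being 0.95 in CC4:2 replicate 1. Ratios between genes depend on gene length, so only their change between samples can be read.

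The log2 ratio of Itgb4 to Sox10, a Schwann cell factor, was 4.11 ± 0.84 in Control, 3.90 ± 0.48 in CC4:4, 4.19 ± 0.49 in CC4:2 and 3.75 ± 0.23 in VP4:2 (SD, n = 3). That of Itga6 to Sox10 was 3.30 ± 1.41, 3.03 ± 0.55, 2.06 ± 0.57 and 2.28 ± 0.43 in the same order. The Control means were raised by replicate 1, at 5.07 for Itgb4 and 4.86 for Itga6, where the other Control samples were at 3.70 and 3.54, and at 2.11 and 2.92. The groups overlapped in both ratios. These ratios were computed after the levels were seen and were not tested.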
